A study of Homo sapiens with 8 samples.

Results

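FOXA1, GATA3, XBP1, SPDEF, TFAP2C, RARA, PGR and NRIP1 are 5 transcription factors of luminal breast cells, a pair of nuclear receptors and a receptor corepressor that act with the estrogen receptor (ER) or are regulated by it. ER chromatin immunoprecipitation sequencing (ChIP-seq) peaks at these 8 genes were compared across 4 libraries of LY2 cells, an ER+ breast cancer line that is resistant to tamoxifen. A peak belonged to a gene if any base of it lay in the GENCODE release 44 gene body or in the 50 kb on either side. This rule used position alone and found 14 of the 35944 peaks, which merged into 11 sites out of 33734.

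Control cells received a non-targeting siRNA (siCtrl, replicates 2 and 3) and knockdown cells an siRNA against CDK12 (siCDK12, replicates 3 and 4), a kinase that promotes transcription elongation. Both were serum depleted for 24 hours in medium free of 4-hydroxytamoxifen, transfected for 48 hours and given 1 µmol/L β-estradiol for 1 hour. All libraries thus come from estradiol-treated cells of a single cell line. The study set aside a divergent replicate of each condition before its comparison, and nothing in the labels says that the remaining replicates are separate cultures, so any spread between them may be technical. Peak lists hold no expression values, so neither the loss of CDK12 nor the luminal identity of the cells could be checked here.

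Peaks had been called by the authors library by library, with MACS2 on GRCh38. Each peak has a fold enrichment, which is the pileup of fragments at the summit plus 1, divided by the local background plus 1, and a q-value given as -log10 q. The added 1 lowers the fold most where the background is low. Neither is normalized between libraries. The siCtrl lists held 15149 (replicate 2) and 6913 peaks (replicate 3), the siCDK12 lists 6653 (replicate 3) and 7229 (replicate 4). All were kept as deposited, and those with a -log10 q above 1.30 (a q-value under 0.05) were marked, which were between 72.0% and 79.6% of each list. For each peak, the pileup and background in fragments were solved from the deposited fold and p-value. The lowest common background was between 7.16 and 7.59 fragments per kb in the 4 libraries, so their depths were close by this measure. Total read numbers were not derived.

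ER is a ligand-activated transcription factor that binds DNA as a dimer, at best to a palindrome of GGTCA called the estrogen response element. FOXA1 is a pioneer factor that opens chromatin for ER, and GATA3 and TFAP2C, an AP-2 family member, bind many of the same enhancers. XBP1 drives the unfolded protein response, and SPDEF is an ETS factor of secretory epithelia. RARA is a retinoic acid receptor, PGR is the progesterone receptor and a classic estrogen-induced gene, and NRIP1 is a corepressor that binds ligand-bound nuclear receptors.

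RARA, NRIP1 and XBP1 each had an ER site that both siCtrl libraries listed and neither of the siCDK12 libraries did. The sequences of these 3 sites are shown because they are the only sites at the 8 genes found in more than a single library. They were read 5′ to 3′ on the plus strand of GRCh38, over the merged span of the siCtrl peaks. Capitals mark the window within 100 bp of the strongest summit that comes closest to the element GGTCANNNTGACC.

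RARA, intron 1, chr17:40322345-40322610: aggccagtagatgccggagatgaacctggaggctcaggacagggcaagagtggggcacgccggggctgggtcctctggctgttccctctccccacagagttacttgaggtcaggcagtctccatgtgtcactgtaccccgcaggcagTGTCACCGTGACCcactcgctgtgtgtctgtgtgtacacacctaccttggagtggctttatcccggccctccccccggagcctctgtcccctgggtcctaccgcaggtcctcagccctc
NRIP1, intron 3, chr21:15005421-15005649: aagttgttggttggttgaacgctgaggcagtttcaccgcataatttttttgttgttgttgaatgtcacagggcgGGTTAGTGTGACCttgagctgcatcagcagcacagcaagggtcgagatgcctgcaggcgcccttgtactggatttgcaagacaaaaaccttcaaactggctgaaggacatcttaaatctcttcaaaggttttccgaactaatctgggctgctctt
XBP1, upstream, chr22:28813760-28814012: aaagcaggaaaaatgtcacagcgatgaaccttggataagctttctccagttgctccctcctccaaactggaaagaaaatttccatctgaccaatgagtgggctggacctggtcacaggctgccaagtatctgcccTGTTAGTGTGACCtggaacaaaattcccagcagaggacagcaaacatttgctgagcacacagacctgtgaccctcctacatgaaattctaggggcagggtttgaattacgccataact

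The RARA element differs from GGTCANNNTGACC by G1T, with positions counted from 1 at its left end, and its centre lies 13 bp to the right of the summit. The NRIP1 element differs by C4T and is centred 32 bp to the left of the summit. The XBP1 element carries both changes, G1T and C4T, and is centred 6 bp to the right of its summit. The NRIP1 and XBP1 elements are equal at 12 of 13 bases and differ only by the substitution G1T from NRIP1 to XBP1. All 3 elements keep the right arm TGACC intact, and in none of them is the left arm GGTCA intact.

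Over the 8 genes, siCtrl replicate 2 had 6 peaks and siCtrl replicate 3 had 5. In siCDK12 there were 2 peaks in replicate 3 and 1 in replicate 4. Both siCDK12 counts lay under both siCtrl counts, with a ratio of the means of 0.273 (two-sided exact permutation test over 6 assignments, p = 0.333, n = 2 libraries per condition). That p-value is the smallest this design can give. Relative to the size of each library's own list, the 8 windows took 0.0397% and 0.0726% of the siCtrl peaks and 0.0302% and 0.0139% of the siCDK12 peaks, a ratio of 0.392 (exact permutation test, p = 0.333). Without siCDK12 replicate 3 this ratio was 0.247, and with 100 kb on either side of the genes it was 0.665 (exact permutation test, p = 0.667 for both), while the ratio of the mean peak numbers was then 0.182 and 0.474. The mean list itself was 0.629 times as long in siCDK12. No site at these genes had a peak in both conditions. Few sites of the series could, since 95.0% of all 33734 sites had a peak in a single library.

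**Figure D1:**
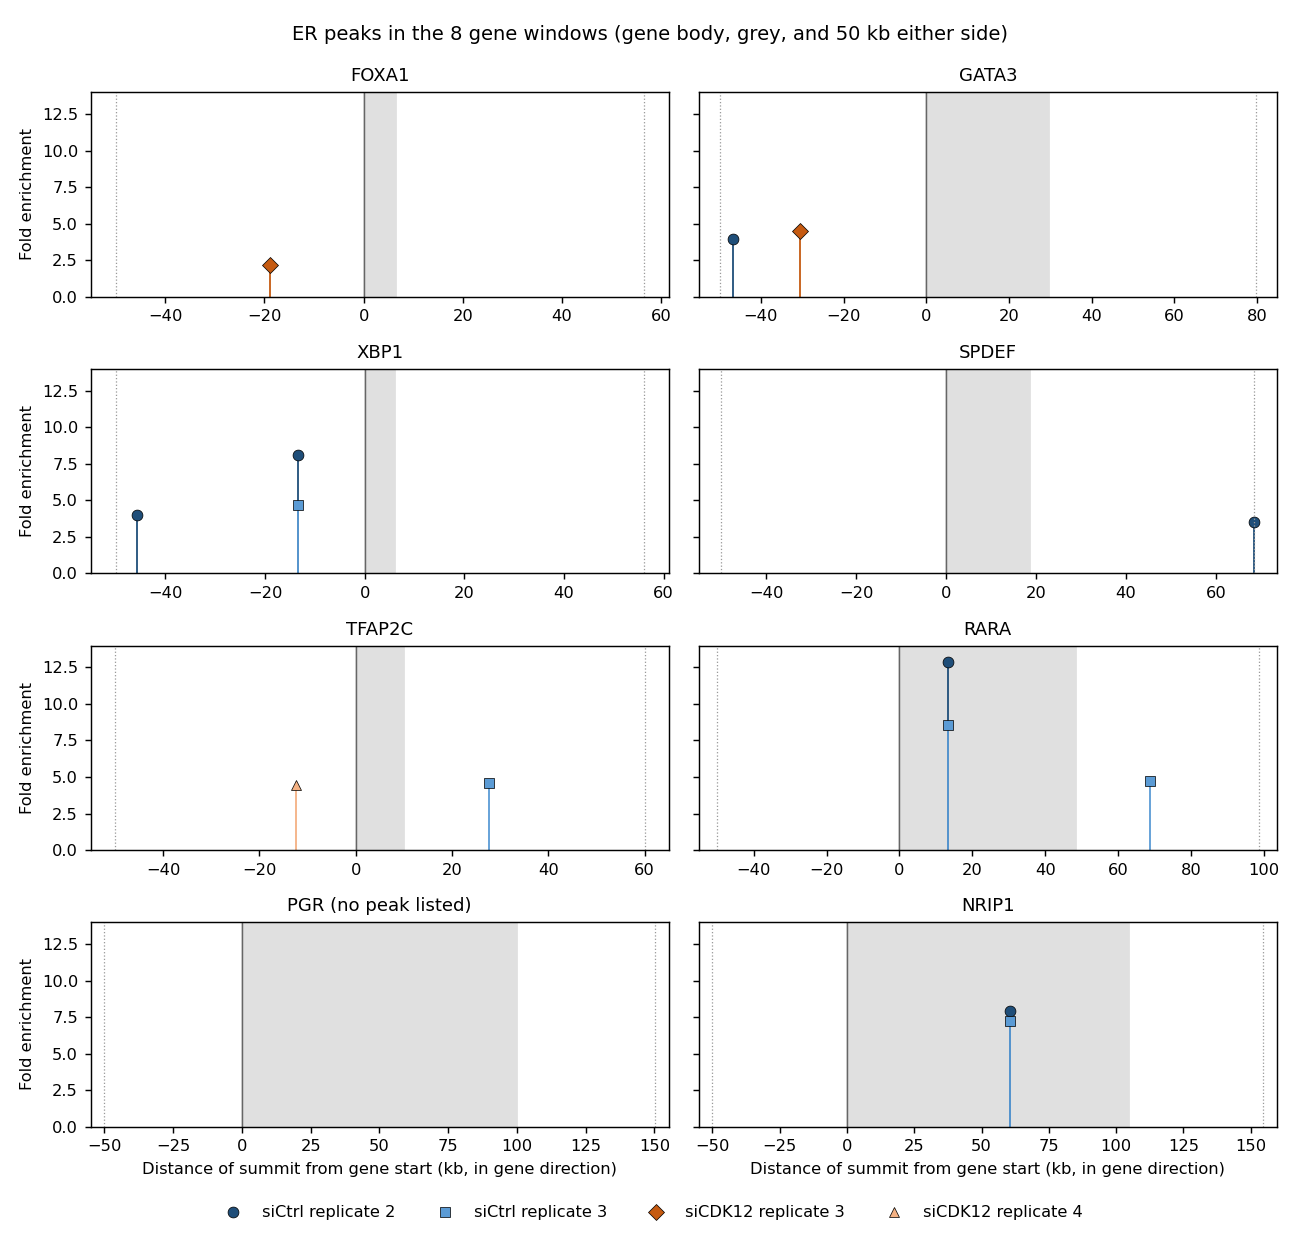
ER peaks at the 8 genes. Each panel is a gene, the x axis is the distance of the summit from the gene start in kb in the direction of the gene, the y axis is the fold enrichment, grey is the gene body, dotted lines are the window ends and each symbol is a peak of 1 library. Paired siCtrl symbols stand at RARA, NRIP1 and XBP1, where no siCDK12 symbol is drawn, and the PGR panel is empty.

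RARA (ENSG00000131759, chromosome 17, 40309180 to 40357643) had the strongest ER site of the 8 genes. It lies in intron 1 of the canonical transcript, 13305 bp downstream of the gene start. Folds of 12.9 (siCtrl replicate 2) and 8.53 (siCtrl replicate 3) came from pileups of 47 and 32 fragments. The peaks ranked 88 of 15149 and 123 of 6913 by -log10 q, the top 0.581% and 1.78% of their lists. No peak was listed there in either siCDK12 library, and the closest siCDK12 peaks were 126 kb away in replicate 3 and 609 kb away in replicate 4. Another RARA peak, 68790 bp downstream of the gene start and 13233 bp from the start of GJD3, a gap junction gene, was listed in siCtrl replicate 3 alone. Its fold was 4.75.

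At NRIP1 (ENSG00000180530, chromosome 21, 14961235 to 15065936) the only site lies in intron 3 of the canonical transcript, 60403 bp into the gene, and also in an intron of the long noncoding RNA gene ENSG00000235609. The folds were close in the siCtrl libraries, 7.94 in replicate 2 and 7.21 in replicate 3. They rest on pileups of 15 and 20 fragments and backgrounds of 1.01 and 1.91 fragments, each with 1 added before the division. The peaks stood in the top 2.63% and 3.40% of their lists. The nearest siCDK12 peaks were 320 kb and 4356 kb from the site.

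At XBP1 (ENSG00000100219, chromosome 22, 28794555 to 28800597) the shared site lies 13298 bp upstream of the gene start, in intron 1 of the long noncoding RNA gene ENSG00000226471. Here the siCtrl libraries differed more. The fold was 8.10 with 30 fragments in replicate 2, but 4.67 with 18 fragments in replicate 3, and the peaks stood in the top 1.45% and 8.30% of their lists. RARA was the strongest of the 3 sites by fold and by -log10 q in both libraries, while NRIP1 and XBP1 changed places between them. A further XBP1 peak, 45803 bp upstream and closer to the start of ZNRF3 (37172 bp), was listed in siCtrl replicate 2 alone with a fold of 3.97 and a pileup of 7 fragments.

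Sites with a peak in both siCtrl and neither siCDK12 library made up 1.59% of all 33734 sites, and 3 of the 11 sites at the 8 genes. Single-library sites, 95.0% of the total, cannot qualify. Across the series 788 sites were shared by the siCtrl pair, and 535 of those lacked any siCDK12 peak. Lacking one was thus the more common outcome for a shared site, as it was for all 3 here. Counted by gene, 3.11% of the 20033 protein-coding gene windows of the same kind held a site of both siCtrl and neither siCDK12 library, and 3 of these 8 did. These shares are descriptions, since neighbouring windows overlap and the members were chosen with earlier results known. Among the 535 such sites of the series, ordered by the mean top percent in the siCtrl lists, the RARA site ranked 30, the NRIP1 site 124 and the XBP1 site 189. The mirror case, a peak in both siCDK12 and neither siCtrl library, made up 0.353% of all sites and was found in 0.389% of protein-coding windows, and at none of the 8 genes.

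An unlisted peak is not a value of 0, so the pileup at which a peak would have been listed was worked out. With the higher of the siCtrl backgrounds at each site, a Poisson p-value under 0.001 needs 9 fragments at RARA, 7 at NRIP1 and 10 at XBP1. Among siCDK12 peaks with a background within 10% of these, the smallest listed pileups were 9, 7 and 9 in both libraries. The siCtrl pileups at the same sites were 32 and 47 at RARA, 15 and 20 at NRIP1, and 18 and 30 at XBP1. Listed siCDK12 peaks were also at least 162 bp (replicate 3) and 156 bp (replicate 4) wide. A narrower stretch of higher pileup could thus have gone unlisted. At the same background, siCDK12 pileups over such a width were below about the listing limits, but how far below cannot be read from peak lists. Binding in fewer cells and weaker binding in each cell cannot be told apart in such bulk data. The backgrounds at the RARA and XBP1 sites were between 2.47 and 2.80 times the lowest common background of the library, and at NRIP1 they were 1.00 and 1.65 times. The part of local background or copy number in these folds was not tested.

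**Figure D2:**
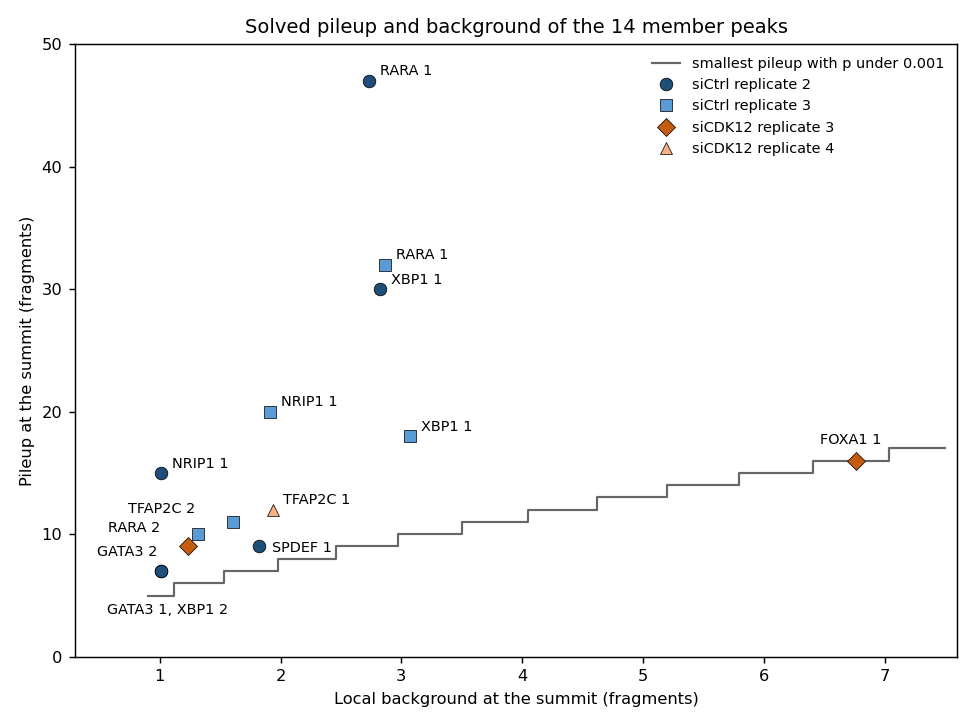
Solved pileup (y axis, fragments) against local background (x axis, fragments) at the summit of the 14 peaks, labelled by gene and site number, with symbols by library. The step line is the smallest pileup with a Poisson p-value under 0.001, where the lists end, so listed peaks lie on or above it. The paired siCtrl peaks at RARA, NRIP1 and XBP1 have 15 to 47 fragments. Single-library peaks, siCtrl and siCDK12 alike, have 7 to 16.

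The other 8 sites were each found in a single library, 5 in siCtrl and 3 in siCDK12. Their folds ran from 2.19 to 4.75, their -log10 q from 0.610 to 2.52 and their pileups from 7 to 16 fragments, all below the -log10 q of 4.40 of the weakest peak at the shared sites. Across the series, 95.0% of sites had a peak in a single library, so single-library sites are the usual kind. Of the strong peaks, with a -log10 q no lower than 5, the 8 windows held 3 of 809 and 2 of 468 in siCtrl and 0 of 130 and 0 of 109 in siCDK12. The mean siCtrl share was 0.399%, and at that same share lists of 130 and 109 strong peaks could hold none here. The member genes without a shared site were FOXA1, GATA3, SPDEF, TFAP2C and PGR.

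GATA3 (ENSG00000107485, chromosome 10, 8045378 to 8075198) had a peak in each condition, at different places. In siCtrl replicate 2 it lay 46785 bp upstream with a fold of 3.97, in an intron of TAF3, which encodes a TFIID subunit. In siCDK12 replicate 3 it lay 30470 bp upstream with a fold of 4.48, in a part of exon 7 of TAF3 outside the coding sequence. Their pileups were 7 and 9 fragments, at the lowest common background of their libraries. TFAP2C (ENSG00000087510, chromosome 20, 56629306 to 56639283) showed the same arrangement, with a siCDK12 replicate 4 peak 12418 bp upstream (fold 4.43) and a siCtrl replicate 3 peak 27759 bp downstream of the gene start (fold 4.60). Neither gene had a peak in its body or at its start.

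SPDEF (ENSG00000124664, chromosome 6, 34537802 to 34556333) had 1 peak, in siCtrl replicate 2, with a fold of 3.54. It lay 49808 bp beyond the gene end, just inside the window, in intron 1 of PACSIN1, an endocytic adaptor gene whose start is closer. FOXA1 (ENSG00000129514, chromosome 14, 37589552 to 37596059) had 1 peak too, in siCDK12 replicate 3, 18816 bp upstream and in intron 2 of TTC6. This was the weakest of the 14 peaks and the only one with a q-value above 0.05 (-log10 q 0.610). Its fold was 2.19, its background was 5.50 times the lowest of the library, and it ranked 6537 of 6653.

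PGR (ENSG00000082175, chromosome 11, 101029624 to 101129813) had no listed peak in any library, although its window of 200 kb was the second longest after that of NRIP1 (205 kb). The nearest listed peaks were 243 kb from the gene body in siCtrl replicate 2, 1793 kb in siCtrl replicate 3, 7509 kb in siCDK12 replicate 3 and 3013 kb in siCDK12 replicate 4. The nearest of these had folds between 3.97 and 4.64. Within 1 Mb on either side there were 2 peaks in siCtrl replicate 2 and 0 in the other libraries. That is 0.0952 peaks per 100 kb in siCtrl replicate 2, against 0.236 over chromosome 11. The region around TFAP2C stood at the other end, with 52 and 56 siCtrl peaks and 41 and 52 siCDK12 peaks within 1 Mb. Chromosome 20 as a whole was rich in peaks, with 1.14 per 100 kb in siCtrl replicate 2 and between 0.652 and 0.839 in the other libraries, and the part of this in the TFAP2C counts was not tested. Around NRIP1 there were 7 and 4 siCtrl peaks but 1 and 0 siCDK12 peaks. The siCtrl densities there were 0.333 and 0.190 peaks per 100 kb, against 0.244 and 0.0963 over chromosome 21. In siCDK12 they were 0.0475 and 0, against 0.0985 and 0.118, so these contrasts rest on few peaks. The 1 Mb distance was chosen after the peaks were seen.

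**Figure D3:**
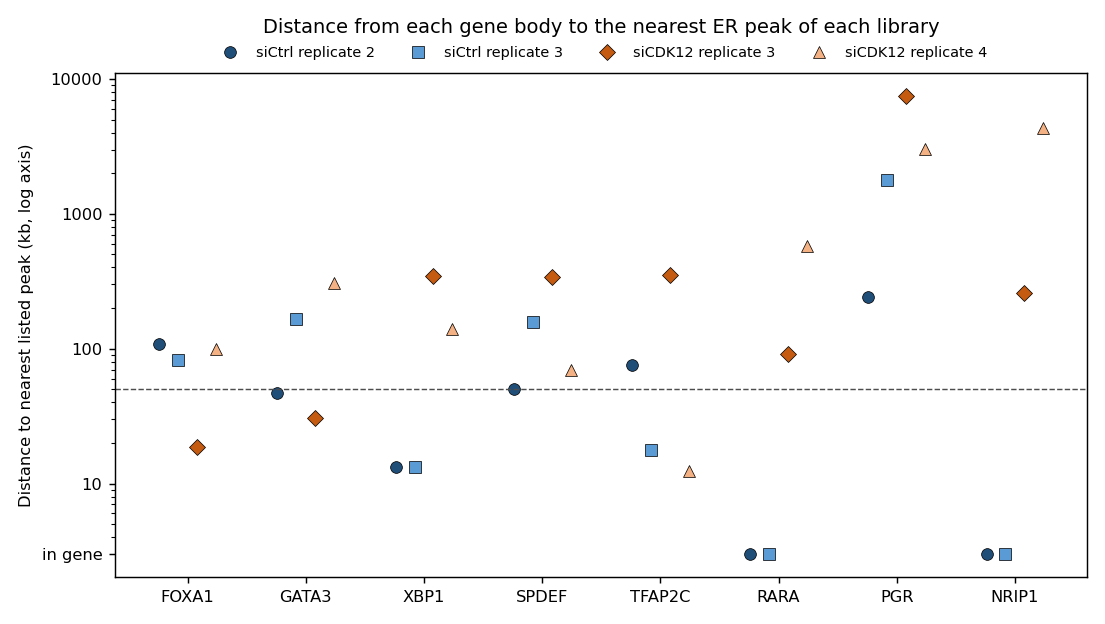
Distance from each gene body to the nearest listed ER peak (y axis, kb, log axis; the bottom mark is a peak inside the gene) for each of the 4 libraries, with the dashed line at 50 kb. At RARA, NRIP1 and XBP1 both siCtrl symbols lie at or under 13.2 kb and both siCDK12 symbols above 50 kb, and at PGR all symbols lie above 50 kb.

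Density over the 8 windows together, 1124 kb, was 0.534 peaks per 100 kb in siCtrl replicate 2 and 0.445 in siCtrl replicate 3. Over chromosomes 1 to 22, X and Y the lists held 0.489 and 0.223. In siCDK12 the windows held 0.178 and 0.0889 peaks per 100 kb, against 0.215 and 0.233 over the genome. So the windows were above the genome's density in both siCtrl libraries and below it in both siCDK12 libraries, on counts of 1 to 6 peaks. The genome's density was taken over full chromosome lengths. Set against gene windows of the same kind, the 8 genes were not rich in peaks. Over the 4 libraries together they had a mean of 1.75 peaks a window, against 2.00 over the 20033 protein-coding windows. Of the 8 genes, 7 had a peak in some library, and 61.4% of all protein-coding windows did. A siCtrl peak was present at 6 of 8 genes against 51.0% of protein-coding windows, and a siCDK12 peak at 3 of 8 against 37.1%.

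**Figure D4:**
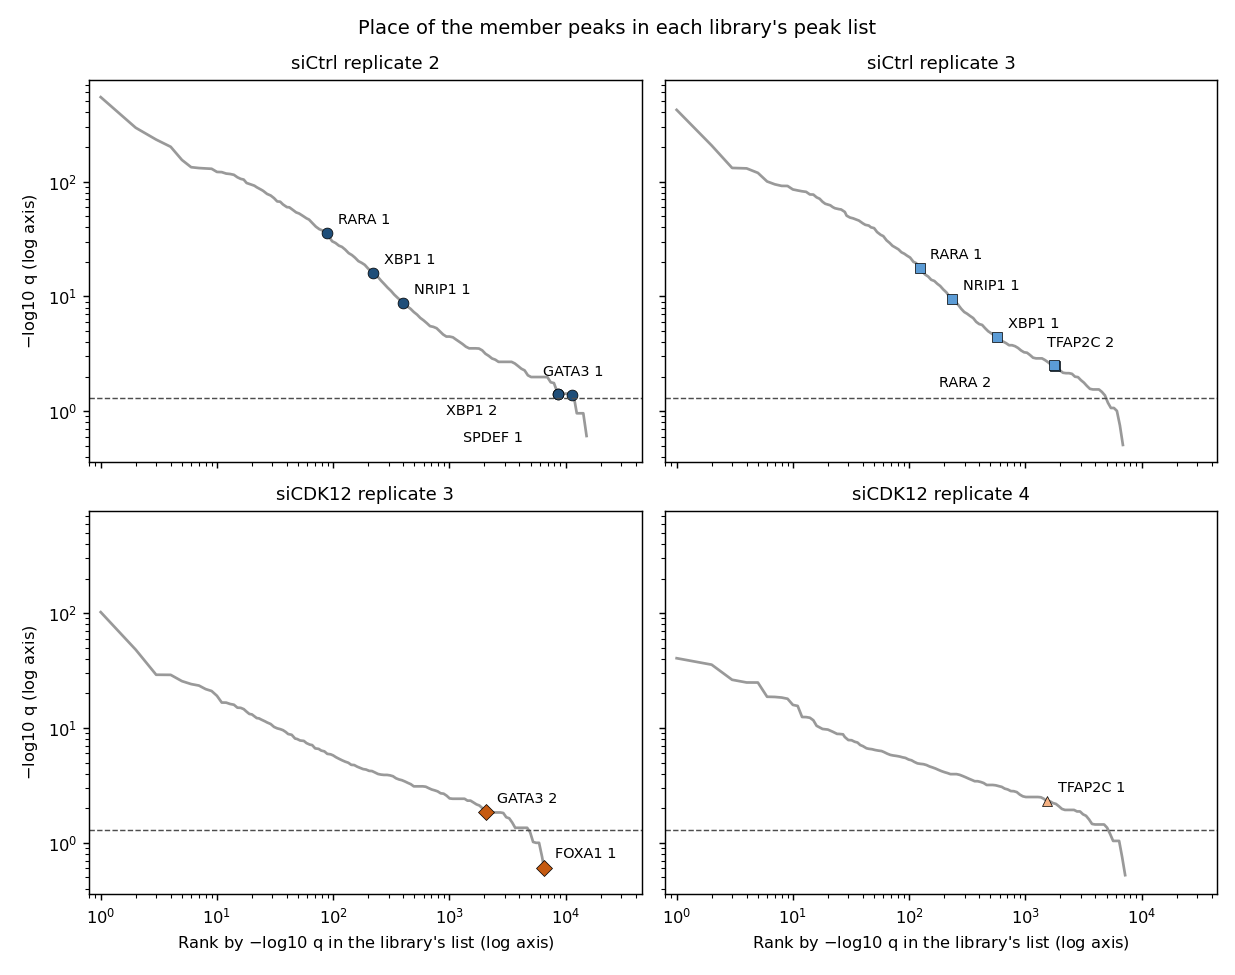
Place of the member peaks in each library's full list, with rank by -log10 q on the x axis and -log10 q on the y axis, both log axes. The grey curve is the whole list, symbols are member peaks labelled by gene and site number, and the dashed line is a q-value of 0.05. RARA, NRIP1 and XBP1 sites sit on the upper part of both siCtrl curves, and the 3 siCDK12 member peaks on the lower part of theirs.

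Allowing 1 mismatch in the 10 fixed bases, the element was found no further than 100 bp from the strongest summit at 2 of the 11 sites, RARA and NRIP1, and at 1.63% of all sites. Windows of the same size 1000 bp downstream held it at 0.403% of all sites. Among the 535 sites of both siCtrl and neither siCDK12 library the share was 23.7%. With 2 mismatches allowed, the XBP1 site was added, and the share was 51.2% of those 535 sites and 11.3% of all sites. At 2 mismatches the windows 1000 bp downstream held the element at 6.54% and 6.07%, so a match of this kind is far more common away from summits than at 1 mismatch. The other 8 sites at these genes had at least 3 mismatches at their best window.

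Motifs of the members' own protein families were searched in the same windows, up to 100 bp either side of the summit, on both strands and with no mismatch. The hexamer AGGTCA, used by RARA and other nuclear receptors, contains the arm GGTCA of the element. It was present at 5 of 11 sites, including the shared sites of RARA, NRIP1 and XBP1. The share was 18.9% of all sites and 48.0% of the 535 (12.8% and 14.8% in the windows 1000 bp away). At NRIP1 and XBP1 the hexamer overlaps the right arm of the marked element, so it is not a separate match there. At the shared RARA site it lies to the left of the element. The forkhead motif TGTTTAC was present at 0 of 11 sites and at 1.81% of all sites, below the 3.18% of the windows 1000 bp away. Its variant TGTTTGC was present only at the shared XBP1 site, and at 2.93% of all sites against 3.23% away from them. AGATAA, the GATA motif, occurred only at the SPDEF site, and at 7.32% of all sites against 15.0% away from them. The AP-2 motif GCCNNNGGC occurred only at the siCDK12 site of GATA3, and at 6.09% of all sites against 2.48%. TGANTCA, the AP-1 motif, was found at none of the 11 sites, and at 6.58% of all sites against 6.38%. A motif match is a description of letters and not a bound factor.

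The sites also differed in how often their sequence recurs in the genome. Of all words of 20 bases in the site, 96.8% at RARA, 94.3% at NRIP1 and 97.4% at the shared XBP1 site occurred once in chromosomes 1 to 22, X and Y. At the FOXA1 site the share was 18.0%, at the second RARA site 34.0% and at the first GATA3 site 60.7%. Single words there occurred 57555, 82344 and 340575 times. These 3 sites thus overlap repeated sequence, and its part in the peaks was not tested. The other 5 single-library sites had shares of 87.7% to 99.3%.

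A pair of wider lists put the members in context. Of 16 other luminal and nuclear receptor transcription factors, 13 had a peak within their windows, and of 14 ER coregulators 12 did, against 61.4% of protein-coding windows. A site of both siCtrl and neither siCDK12 library was found at 1 of the 16, TLE3, a corepressor, and at 1 of the 14, NCOA3, a coactivator, against 3.11%. The TLE3 site, chromosome 15 from 70016228 to 70016496, had folds of 4.95 and 5.84. NCOA3 had 111 listed peaks in all, between 27 and 29 a library, none with a fold above 3.27. It held 2 such sites and 4 of the mirror case, which a single other gene of the lists, ZNF217, also showed, at 3 sites among 59 peaks. Both genes lie on chromosome 20. No site at ESR1, the gene of ER itself, was shared by the siCtrl libraries among its 10 peaks, nor was any at RARB (21 peaks) or RARG (1 peak), the paralogs of RARA.

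The genes whose windows were most like those of RARA, NRIP1 and XBP1 were named by the distance between their highest log2 folds in the 4 libraries. They were FAM20C, FOXL3, RPL13, SCNN1G and MTMR7 for RARA, with distances from 0.0720 to 0.214. MGST2, MAX, RETREG1, PDGFB and RPL3 were closest to NRIP1 (0.0999 to 0.178), and RREB1, LRRC49, XRCC3, ZFYVE21 and ENSG00000283782 to XBP1 (0.0303 to 0.135). That all of them had a siCtrl peak in both libraries and no siCDK12 peak follows from this choice and is no separate result. FAM20C with FOXL3, PDGFB with RPL3, and XRCC3 with ZFYVE21 have equal values because their windows share a site.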

How the data were processed

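ER peak lists of 4 LY2 libraries were analysed. Inputs and reads were not analysed here. After read filtering with SOAPnuke, the authors used BWA-MEM for alignment to GRCh38 and MACS2 for narrow peaks of each library. The deposited values are the fold enrichment (a ratio to the local background, with 1 added to both), the -log10 p-value and -log10 q-value at the summit, and a score, which is 10 times the -log10 p-value cut to a whole number. Although the stated false discovery rate was 0.05, the deposited lists extend to a p-value of 0.001. No peak ran past a chromosome end of the GRCh38 sequence used here.

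Members and gene lists were chosen with earlier results of these data known. Peaks on chromosomes 1 to 22, X and Y sharing at least 1 bp were merged into sites. All 8 genes are named, with every site found in 2 or more libraries or reaching a -log10 q of 5, and the genes hosting or nearest to named sites. List genes with a site in both libraries of a condition are also named, as are the 5 most alike protein-coding genes of each of the 3 leading members, which tied. Chosen after values were seen were the single-library sites, ESR1, RARB and RARG, the 1 Mb regions, the nearest peaks, the listing limits and the word counts.

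Pileup k and background b were solved from fold = (k + 1) / (b + 1) and the Poisson p-value, to within 0.001 of -log10 p for 99.986% to 100% of each list. Only the functions that solved pileups, merged sites, found elements and assigned peaks to windows were checked on made-up data, where they recovered known answers. Peak numbers were compared by two-sided exact permutation tests. Presence in peak lists replaces the study's DiffBind test, which needs reads. Counts of peaks have no interval beyond the values of both libraries. The tools were pysam 0.24.0, SciPy 1.17.1, pandas 2.3.3, numpy 2.4.6 and matplotlib 3.10.9 under Python 3.11.15.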

Additional observations from a re-analysis of the deposited data

How the results depend on the processing

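The ratio of peak numbers over the 8 windows, siCDK12 over siCtrl, stayed under 1 in all 13 alternatives run for it, as did the ratio of list shares in its 13. They ranged over the 4 values that each left out 1 library from 0.182 to 0.364 and from 0.247 to 0.554. No exact permutation test here can go below 0.333. The lowest ratio was 0, where filters on -log10 q or fold, or windows of at most 10 kb either side, left no siCDK12 peak. With 100 kb either side the ratios were 0.474 and 0.665 (exact permutation test, p = 0.333 and 0.667), and the share ratio also had p = 0.667 (exact) without siCtrl replicate 3 and without either siCDK12 library. The XBP1 site lies outside windows of at most 10 kb, and its siCtrl replicate 3 peak falls away where 5 is the minimum of -log10 q or of fold, so 2 of the 3 sites are then counted.

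Sites of both siCtrl and neither siCDK12 library numbered 3 to 6 when 1 library was left out, with 5 without siCtrl replicate 2 and 6 without siCtrl replicate 3, since no second siCtrl library then has to share the peak. The mirror case numbered 0 to 2, with 1 without siCDK12 replicate 3 and 2 without siCDK12 replicate 4, for the same reason. Sites with an element numbered 2 in each of the leave-one-out values, 0 with no mismatch allowed and 3 with 2 mismatches.

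No paired analysis was possible because 3 is the only replicate number that siCtrl and siCDK12 have in common. Depth limits what an unlisted peak can show.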
